A study of Homo sapiens with 8 samples.

Results

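The RNA changes that p300 shRNA arrays had in common in 2 human melanoma cell lines are described here, across all measured features. A feature was counted as shared when its change, shp300 minus scrambled, had the same sign in WM983B and in SK-Mel5 and when, within each line, both arrays of one group lay above both arrays of the other. By this rule 5948 of 23786 features were shared, of which 5693 carried 1 gene symbol, and they were ranked by the smaller of their 2 absolute changes. The rule reads the measured values, so the direction of a shared feature and the separation of its arrays are given, not found. There were 4 groups of 2 Affymetrix Human Gene 2.0 ST arrays: WM983B shp300, WM983B scrambled, SK-Mel5 shp300 and SK-Mel5 scrambled. The cells of every group had been transduced with pLKO1 lentivirus in polybrene at 8 µg/mL and selected with puromycin at 1.5 µg/mL, beginning 48 h after transduction, so the scrambled cells shared the vector and the selection. The labels name the shRNA against p300 only as shp300. Whether both arrays of one group stem from independent cultures is not stated, so p-values rest on the spread between arrays alone, and that spread may be technical.

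p300, encoded by EP300, and its relative CBP, encoded by CREBBP, acetylate histones and other proteins and serve as co-activators for many transcription factors. In melanoma cells MITF, the main transcription factor of melanocytes, drives genes of pigment, survival and proliferation. Genes of the cell cycle are switched on in waves: E2F factors act on DNA replication genes as cells enter S phase, and B-MYB and FOXM1 act with the MuvB complex on mitotic genes. When cells stop dividing, the DREAM complex holds both waves down, through E2F sites and through a promoter element called the CHR.

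EP300 itself was not a shared feature. It had log2 values of 5.97 and 6.10 on the SK-Mel5 shp300 arrays, against 7.19 and 6.90 on the scrambled ones. On the WM983B arrays labelled shp300 it had 6.92 and 7.26, against 7.10 and 7.22 on the scrambled ones, so the groups overlapped there. The change was -0.07 in WM983B and -1.01 in SK-Mel5, and these 2 changes differed (difference 0.95, limma adjusted p = 0.0357). Over both lines it was -0.54 (SE 0.19, adjusted p = 0.097). Under other processing and with single arrays left out it lay between -0.70 and -0.39, and -0.70 was the value without WM983B shp300 replicate 2. Because EP300 RNA was not measurably lower in WM983B, every direction given for that line below is that of the arrays labelled shp300. CREBBP was shared and higher, with 7.61 and 7.94 on the WM983B arrays labelled shp300, against 7.10 and 7.06, and with 7.66 and 7.53 in SK-Mel5 with shp300, against 6.73 and 6.61 with scrambled shRNA. It rose by 0.81 over both lines (SE 0.11, adjusted p = 0.00129).

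Replicate arrays correlated at r between 0.992 and 0.995, and the median value of an array was 4.26 to 4.28 in WM983B and 2.96 to 3.01 in SK-Mel5, so levels of the lines are not on one scale. All 7 measured melanocytic markers lay above the median feature in both lines. Their mean level was 9.01 to 9.25 on the WM983B arrays labelled shp300, against 10.45 to 10.46 on the scrambled ones, and 9.18 to 9.26 in SK-Mel5 with shp300, against 9.38 to 9.41. Of 6 keratinocyte markers 0 lay above the median feature in either line, as did 0 of 8 endothelial markers in WM983B and 1 in SK-Mel5. Of the 8 fibroblast markers 4 were above the median in each line, with mean levels of 4.48 to 4.49 in WM983B labelled shp300, against 4.42 to 4.47, and 3.74 to 3.87 in SK-Mel5 with shp300, against 3.64 to 3.68. Among them DCN was called higher (1.02, limma adjusted p = 0.00279) and LUM lower (-0.57). The call of LUM was lost without any array but WM983B scrambled replicate 2 and WM983B shp300 replicate 1 (adjusted p up to 0.0735). Of 7 leukocyte markers 2 lay above the median feature in WM983B and 1 in SK-Mel5, with mean levels of 3.84 to 3.85 in WM983B labelled shp300, against 3.84 to 3.86, and 2.36 to 2.46 in SK-Mel5 with shp300, against 2.65 to 2.66. CD68 was the leukocyte marker that was called, with a shared fall of 1.46 in WM983B and 1.74 in SK-Mel5 (-1.60 over both lines, adjusted p = 3.43e-05). The part of such cells in the changes was not tested.

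Over all sizes, shared rises and falls were nearly equal in number, and of the larger changes most were falls. The rule took 2956 features as higher (12.4% of all features) and 2992 as lower (12.6%), together 25.0%. With at least a 2-fold change in each line there were 77 rises (0.324%) and 331 falls (1.39%), so that 81.1% of these 408 features were lower. With at least 3-fold there were 8 rises and 82 falls, and with at least 4-fold 2 rises and 15 falls. The smaller of the 2 changes had a median of 0.29 on the log2 scale among shared rises and 0.38 among shared falls, and a 90th percentile of 0.66 and 1.05. For comparison, features without overlap of arrays in 1 line taken alone made up 58.4% of all features in WM983B and 51.4% in SK-Mel5. Opposite directions without overlap were seen for 2319 features, but for only 11 with a 2-fold change in each line, against the 408 with the same direction.

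**Figure D1:**
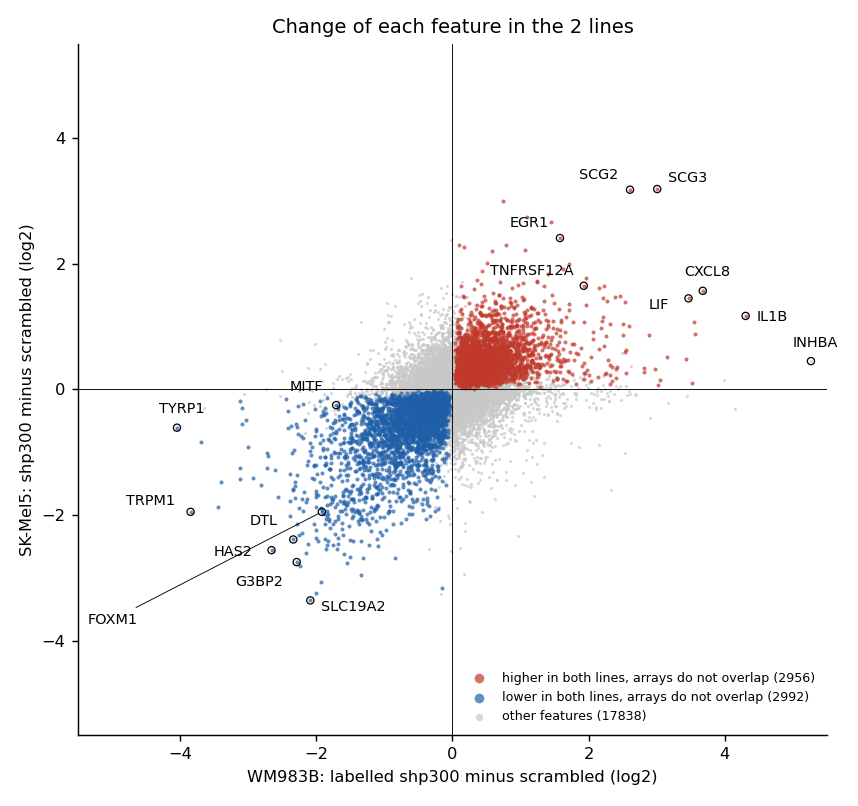
Change of each of the 23786 features in the 2 lines, with shp300 minus scrambled (log2) in WM983B on the horizontal axis and in SK-Mel5 on the vertical axis. Red points are the 2956 features higher in both lines without overlap of arrays, blue points the 2992 lower ones, and grey points all others. Circled genes are named in the text, and INHBA is circled though not shared. In WM983B the horizontal axis refers to the arrays labelled shp300.

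**Figure D2:**
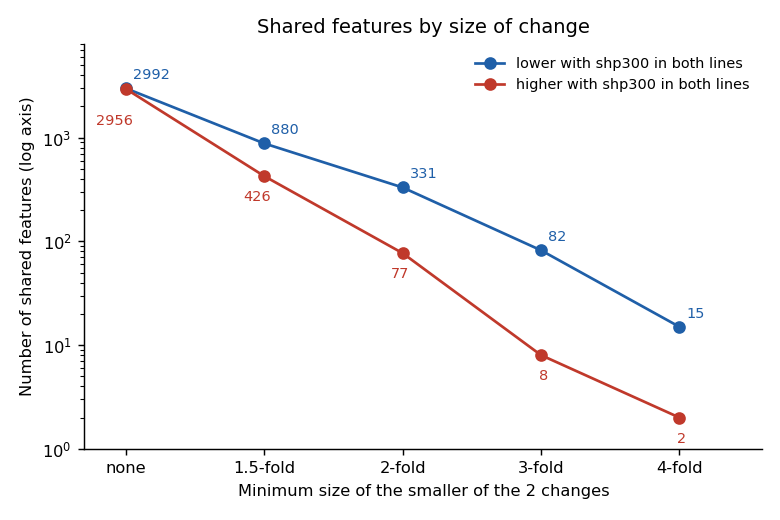
Number of shared features (log axis) by the minimum size of the smaller of the 2 changes. Lower features (blue) number 331 at 2-fold and 15 at 4-fold, and higher features (red) 77 and 2.

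The additive limma fit of line and shRNA called 3991 features at an adjusted p under 0.05 (16.8% of all), 1815 higher (7.63%) and 2176 lower (9.15%). Of the shared features 3899 were called, including all 408 with a 2-fold change in each line, and 2049 were not. "Rose" and "fell" below refer to called features, and every count of them stands against these 7.63% and 9.15% of all features. The fit and the rule use the same values, so neither supports the other.

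The 15 highest ranked shared rises have varied roles. SCG3, first in rank and located on chromosome 15, encodes secretogranin III, a granin of secretory granules. Its log2 values were 5.26 and 5.31 on the WM983B arrays labelled shp300, against 2.26 and 2.28 on the scrambled ones, and 4.65 and 4.56 in SK-Mel5 with shp300, against 1.36 and 1.48. The scrambled groups were dim, at percentile 20.1 of all features in WM983B and 17.7 in SK-Mel5, and the shp300 arrays stood far above them. SCG3 rose over both lines (log2 change 3.10, SE 0.09, adjusted p = 1.69e-06). Values this dim may lie at the background of the array, which was not measured here, so the size of this change is uncertain. SCG2 on chromosome 2, the precursor of secretoneurin, had 6.38 and 6.51 on the WM983B arrays labelled shp300, against 3.68 and 3.99, and 5.37 and 5.43 in SK-Mel5 with shp300, against 2.06 and 2.38. It rose by 2.90 on the log2 scale (SE 0.15, adjusted p = 1.42e-05), and its scrambled values in SK-Mel5 were dim too. These were the 2 shared features that passed 4-fold upward in each line. AP3B2, a subunit of the neuronal AP-3 adaptor for vesicle transport, had 5.65 and 5.80 on the WM983B arrays labelled shp300, against 3.64 and 3.86, and 5.18 and 4.70 in SK-Mel5 with shp300, against 3.26 and 3.10. The change of AP3B2 was 1.87 (SE 0.13, adjusted p = 4.87e-05).

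Receptors of the cell surface followed. DCBLD2, a transmembrane protein with CUB and discoidin domains, had 11.61 and 11.71 on the WM983B arrays labelled shp300, against 9.97 and 9.92, and 9.85 and 9.84 in SK-Mel5 with shp300, against 7.76 and 7.95. TNFRSF12A, the receptor of the cytokine TWEAK, had 10.97 and 11.10, against 9.04 and 9.16, in WM983B and 7.75 and 7.35 with shp300, against 5.69 and 6.12 with scrambled shRNA, in SK-Mel5. Both stood far apart from the spread of their replicates, with changes over both lines of 1.85 (SE 0.10, adjusted p = 1.84e-05) for DCBLD2 and 1.79 (SE 0.14, adjusted p = 7.96e-05) for TNFRSF12A. ID1, an inhibitor of basic helix-loop-helix factors, had 8.20 and 8.14 on the WM983B arrays labelled shp300, against 6.04 and 5.84, and 5.76 and 5.13 in SK-Mel5 with shp300, against 3.70 and 3.91 (change 1.94, SE 0.17, adjusted p = 0.00016). MXD1, which competes with MYC for the partner MAX, had 7.96 and 7.97 on the WM983B arrays labelled shp300, against 5.57 and 5.60, and 5.95 and 5.73 in SK-Mel5 with shp300, against 4.16 and 4.58. MXD1 rose in both lines, more in WM983B (2.39) than in SK-Mel5 (1.47; adjusted p of the difference 0.041).

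Other high ranks held BEX1, a small adaptor protein known from neurons, which rose by 1.77 over both lines (adjusted p = 0.000871), and RUNDC3A, a RUN domain protein, which rose by 1.88 (adjusted p = 8.37e-05). BEX1 was read from dim values in SK-Mel5, 3.66 and 2.63 with shp300 against 1.53 and 0.95, and its arrays were the least alike there. AGMO, an enzyme that cleaves ether lipids, rose by 1.98 (adjusted p = 0.000462). CEMIP2, a cell surface hyaluronidase, rose by 2.21 in WM983B and 1.45 in SK-Mel5, and RPL37A-DT, a long noncoding RNA, by 1.46 and 1.51.

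**Figure D3:**
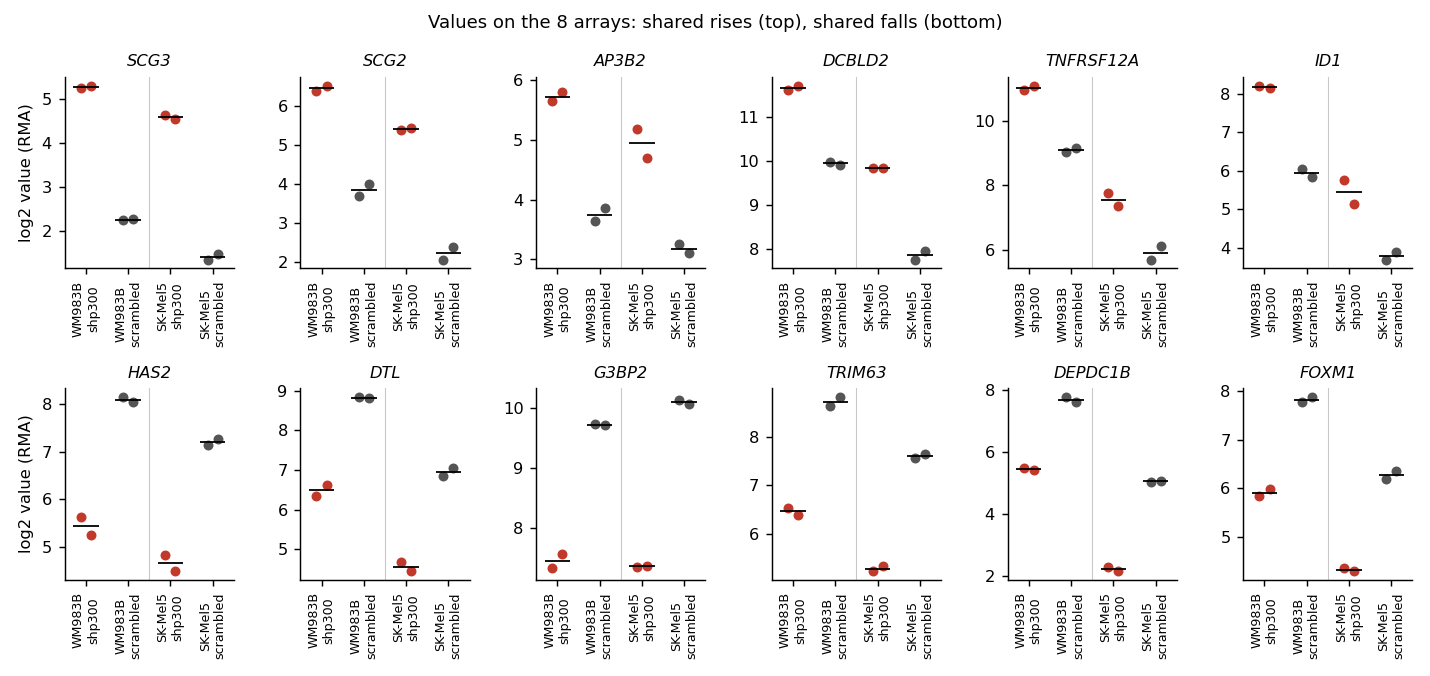
Log2 values on each of the 8 arrays for 6 shared rises (top) and 6 shared falls (bottom). Points are arrays, red for shp300 and grey for scrambled, lines are group means (n = 2), and each panel has its own vertical range. In all 12 panels the 2 groups of a line are apart, and the WM983B shp300 group is that of the arrays so labelled.

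The 15 highest ranked shared falls have varied roles as well. HAS2, a synthase of the matrix polysaccharide hyaluronan, was first in rank. It had 5.63 and 5.25 on the WM983B arrays labelled shp300, against 8.15 and 8.05 on the scrambled ones, and 4.82 and 4.49 in SK-Mel5 with shp300, against 7.15 and 7.27. HAS2 fell 6.10-fold over both lines (log2 change -2.61, SE 0.12, adjusted p = 1.28e-05), by nearly the same amount in each. DTL on chromosome 1, the substrate receptor of the CUL4 ubiquitin ligase that removes the licensing factor CDT1, had 6.34 and 6.63 on the WM983B arrays labelled shp300, against 8.84 and 8.82, and 4.67 and 4.45 in SK-Mel5 with shp300, against 6.84 and 7.06. DTL fell by 2.34 in WM983B and by 2.39 in SK-Mel5. G3BP2, an RNA-binding protein of stress granules, had 7.32 and 7.56 on the WM983B arrays labelled shp300, against 9.73 and 9.72, and 7.35 and 7.36 in SK-Mel5 with shp300, against 10.14 and 10.07. G3BP2 was 5.73-fold lower over both lines (-2.52, SE 0.12, adjusted p = 1.28e-05). TRIM63, the ubiquitin ligase MuRF1 known from muscle, had 6.54 and 6.40 on the WM983B arrays labelled shp300, against 8.62 and 8.81, and 5.24 and 5.34 in SK-Mel5 with shp300, against 7.57 and 7.65. Its 2 changes, -2.25 and -2.32, were almost the same.

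Several of the next falls act in mitosis or DNA metabolism. DEPDC1B fell by 2.24 in WM983B and by 2.82 in SK-Mel5. NEDD1, which brings gamma-tubulin to centrosomes and spindles, fell by 2.28 and by 2.15. The mitotic kinase PBK fell by 2.12 and by 2.46, and the nuclease EXO1 by 2.39 and by 2.02. Others have different roles: SLC19A2, a thiamine transporter, fell by 2.09 in WM983B and by 3.36 in SK-Mel5, and PRKCH, a protein kinase C isoform, by 2.01 and by 3.24. In both the change was larger in SK-Mel5 (adjusted p of the difference 0.00384 for SLC19A2 and 0.0256 for PRKCH). FGF14, a modulator of sodium channels, fell by 2.13 over both lines, and CTNNAL1, an alpha-catenin relative, by 2.18. PPIA, the gene of cyclophilin A, read -2.16 and -2.60, and the histone gene H2BC14 -2.04 and -2.15. Both have near-identical copies in the genome, so their values are uncertain, as is that of the antisense RNA SLCO4A1-AS1 (-2.21 and -2.29), since how probes were mapped to genes was not stated. HAS2 and CEMIP2, the hyaluronan synthase and the hyaluronidase, thus changed in opposite directions, each the same way in both lines.

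Cell cycle genes were the group in which the most members fell. FOXM1 had 5.83 and 5.98 on the WM983B arrays labelled shp300, against 7.77 and 7.88, and 4.35 and 4.29 in SK-Mel5 with shp300, against 6.19 and 6.35. It fell 3.83-fold (-1.94, SE 0.09, adjusted p = 1.28e-05), by 1.92 in WM983B and by 1.95 in SK-Mel5. Of 20 listed genes of FOXM1, B-MYB, E2F and DREAM 10 fell and 1 rose, and the same numbers were shared, with a list median of -0.49 against 0.02 for all features. E2F1 fell by 2.14 and by 1.21, RBL1 by 1.66 and by 1.28, and LIN52 by 1.18 and by 1.35. RB1, the retinoblastoma gene, was the member that rose (0.40). E2F3, E2F4, E2F7, RBL2, LIN37 and LIN54 were not called, with changes between -0.13 and 0.23.

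Promoter sequences are shown for genes of both cell cycle waves and for 1 rise, since the motifs named above can be read in them. Each is the stretch of 250 bases before the first listed start of the gene, in the direction of transcription, from RefSeq (GRCh38.p14). Capitals mark every match to one of 5 motifs on either strand. HMMR (chr5:163460382-163460631, plus strand) and CCNB2 (chr15:59104896-59105145, plus strand) are the highest ranked shared mitosis genes with a CHR in the 100 bases before the start. RFC3 (chr13:33817899-33818148, plus strand) and MCM6 (chr2:135876444-135876693, minus strand) are the highest ranked shared replication genes with an E2F motif. DTL (chr1:212035498-212035747, plus strand) is the highest ranked shared fall with an E2F motif, and SKIL (chr3:170357465-170357714, plus strand) the highest ranked shared rise with a CRE.
HMMR: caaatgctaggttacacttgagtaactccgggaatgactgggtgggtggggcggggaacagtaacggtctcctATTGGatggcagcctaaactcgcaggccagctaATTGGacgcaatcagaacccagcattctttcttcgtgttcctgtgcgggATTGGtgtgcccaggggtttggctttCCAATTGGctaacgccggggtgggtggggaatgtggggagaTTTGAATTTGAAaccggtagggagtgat
CCNB2: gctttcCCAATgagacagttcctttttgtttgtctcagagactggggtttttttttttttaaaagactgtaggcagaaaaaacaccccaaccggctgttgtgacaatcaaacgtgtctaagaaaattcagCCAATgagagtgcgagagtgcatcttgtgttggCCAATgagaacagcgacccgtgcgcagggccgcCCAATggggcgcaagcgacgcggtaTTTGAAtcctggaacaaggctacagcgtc
RFC3: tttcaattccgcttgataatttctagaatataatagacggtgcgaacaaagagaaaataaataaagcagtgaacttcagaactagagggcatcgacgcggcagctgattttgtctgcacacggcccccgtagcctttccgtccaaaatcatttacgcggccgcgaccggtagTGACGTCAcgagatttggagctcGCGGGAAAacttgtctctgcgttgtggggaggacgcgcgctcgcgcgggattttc
MCM6: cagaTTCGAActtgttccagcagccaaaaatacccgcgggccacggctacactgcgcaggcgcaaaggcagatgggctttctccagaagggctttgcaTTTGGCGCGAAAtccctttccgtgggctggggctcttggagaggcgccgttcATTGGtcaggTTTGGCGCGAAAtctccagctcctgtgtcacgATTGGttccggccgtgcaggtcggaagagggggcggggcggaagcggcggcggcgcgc
DTL: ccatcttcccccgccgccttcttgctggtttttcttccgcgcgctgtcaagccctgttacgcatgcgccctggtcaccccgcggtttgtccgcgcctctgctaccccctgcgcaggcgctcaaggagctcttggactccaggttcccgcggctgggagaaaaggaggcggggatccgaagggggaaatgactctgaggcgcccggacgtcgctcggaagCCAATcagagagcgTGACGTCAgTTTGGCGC
SKIL: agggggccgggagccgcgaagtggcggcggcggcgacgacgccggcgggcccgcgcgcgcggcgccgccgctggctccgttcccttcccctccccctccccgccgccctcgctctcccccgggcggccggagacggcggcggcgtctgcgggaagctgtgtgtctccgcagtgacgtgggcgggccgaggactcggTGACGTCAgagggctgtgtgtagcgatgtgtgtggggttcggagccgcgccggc

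HMMR, a protein of the spindle and a hyaluronan receptor, has 2 adjoining CHR matches that begin at -28 and -22, counted from the start of the gene, and 5 matches to CCAAT further away, 4 of them on the other strand. CCNB2, the gene of cyclin B2, has 1 CHR beginning at -29 and 4 CCAAT boxes further away. In RFC3, a subunit of the clamp loader, the E2F match lies on the other strand and begins at -55, and in MCM6, a subunit of the replicative helicase, 2 pairs of overlapping E2F matches begin at -152 and -90. MCM6 also holds a CHR, at -246. In DTL a CCAAT box, a CRE and an E2F match begin at -31, -17 and -8. In SKIL the CRE begins at -54. HMMR fell by 1.69 in WM983B and by 2.46 in SK-Mel5, CCNB2 by 1.41 and by 1.93, RFC3 by 1.95 and by 1.48, and MCM6 by 1.99 and by 1.35.

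The motif counts were made over 16038 features with such a window. The letters searched, on both strands and with overlaps allowed, were TTTGAA and TTCGAA for the CHR, TTTCCCGC, TTTCGCGC, TTTGCCGC and TTTGGCGC for E2F, CCAAT for NF-Y, TGACGTCA for the CRE and TCATGTG for the M-box of MITF. A CHR was present in 20 of 34 windows of shared mitosis genes (58.8%), in 2 of 30 of shared replication genes (6.67%), and in 12.2% of all windows. An E2F motif was present in 1 of 34 (2.94%) and 12 of 30 (40%), and in 3.61% of all. CCAAT was found in 79.4% and 56.7%, and in 34.3% of all, and a CHR together with CCAAT in 52.9% of the mitosis windows and 4.68% of all. Among the 273 windows of falls of at least 2-fold in each line the shares were 21.2% (CHR), 12.1% (E2F), 57.5% (CCAAT), 5.49% (CRE) and 1.47% (M-box). Among the 63 windows of rises of that size they were 14.3%, 1.59%, 36.5%, 3.17% and 0%, and 1.99% of all windows held an M-box and 2.29% a CRE. Nearly all measured members of the mitosis and replication lists were shared (40 of 41 and 33 of 34). Their motif shares therefore describe the lists and not the changes measured here. A match is a description of letters, and the windows had mean GC contents of 60.2% to 65.0% in the groups counted.

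**Figure D4:**
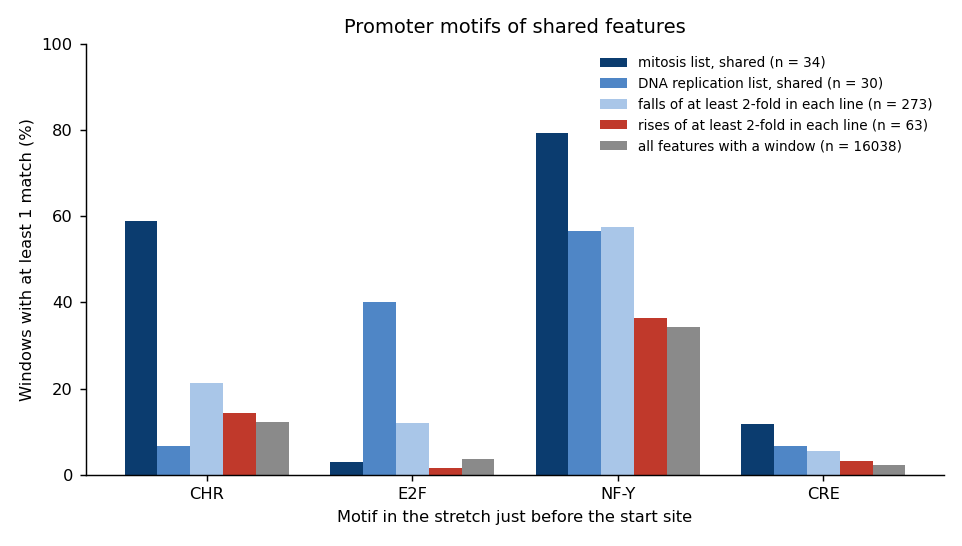
Share of promoter windows (%) with at least 1 match to the CHR, E2F, NF-Y and CRE motifs. Bars are shared mitosis genes (n = 34), shared replication genes (n = 30), falls (n = 273) and rises (n = 63) of at least 2-fold in each line, and all features with a window (n = 16038). The CHR bar is tallest for mitosis genes (58.8%) and the E2F bar for replication genes (40%). Nearly all measured members of both lists were shared, so their bars describe the lists and not the changes.

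DNA replication genes fell in both lines, from origin licensing to nucleotide supply. Of 34 measured members 33 were called lower and the same number were shared and lower, 23 of them by at least 2-fold in each line, and the list median was -1.49. CDC6, which loads the helicase at origins, had 5.48 and 5.60 on the WM983B arrays labelled shp300, against 7.44 and 7.29, and 2.84 and 2.53 in SK-Mel5 with shp300, against 4.55 and 5.00. POLE2, a subunit of polymerase epsilon, had 3.79 and 3.89, against 6.22 and 5.87, in WM983B and 1.58 and 1.90 with shp300, against 3.43 and 3.56 with scrambled shRNA, in SK-Mel5. Every shp300 array of these genes lay more than 1 log2 unit below the scrambled arrays of its line. RFC4 of the clamp loader fell by 1.77 and by 1.79, thymidine kinase TK1 by 1.83 and by 1.99. All 7 measured MCM genes from MCM2 to MCM7 and MCM10 were shared falls. POLD1, the catalytic subunit of polymerase delta, was the member that was neither called nor shared (-1.38 in WM983B and -0.05 in SK-Mel5).

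Mitotic genes fell as a whole. All 41 measured members were called lower, 40 were shared and 37 passed 2-fold in each line, and the list median was -1.61 over both lines, -1.35 in WM983B and -1.88 in SK-Mel5. CDK1, the kinase that starts mitosis, had 6.31 and 6.61 on the WM983B arrays labelled shp300, against 8.36 and 8.27, and 3.42 and 2.87 in SK-Mel5 with shp300, against 4.88 and 4.79. The kinase NEK2 had 4.97 and 5.25, against 6.90 and 6.83, in WM983B and 2.96 and 3.40 with shp300, against 5.41 and 5.89, in SK-Mel5. Both were clearly lower in each line, by 1.77 (SE 0.14) and 2.12 (SE 0.19) over both. SPC25 of the NDC80 kinetochore complex fell by 2.13, DLGAP5 of the spindle by 2.02 and the checkpoint kinase BUB1 by 2.11. SPC24, the partner of SPC25, was called (-1.15, adjusted p = 0.0479) without being shared, since its SK-Mel5 change was -0.20. The smallest fall of the list was that of ECT2 (-1.05), a regulator of cytokinesis. In RNA of whole cultures, fewer dividing cells and less RNA per cell cannot be told apart.

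Genes of DNA repair and of chromatin copying fell with them in large part. Of 20 measured repair genes 16 fell and 17 were shared and lower, with a median of -1.07. BRCA1, a tumour suppressor of homologous recombination, had 4.35 and 4.26 on the WM983B arrays labelled shp300, against 6.76 and 6.64, and 3.51 and 3.40 in SK-Mel5 with shp300, against 5.23 and 5.25. BRCA1 fell 4.25-fold (-2.09, SE 0.13), FANCI of the Fanconi pathway by 1.79, and XRCC2 by 1.70. The damage kinases ATM and ATR and the lesion sensor XPC were not called, with 0.32, 0.03 and 0.35. Of 18 chromatin maintenance genes 11 fell and 1 rose. The helicase HELLS fell by 1.93, the histone chaperones ASF1B and CHAF1B by 1.72 and 1.63, lamin B1 (LMNB1) by 1.34 and the methyltransferase EZH2 by 1.29. Its partners SUZ12 and EED, both at -0.06, were not called, nor was the chaperone ASF1A (0.10). Of 11 measured acetyltransferases HAT1, which acetylates newly made histones, fell (-1.49), and CREBBP and KAT6A (0.47) rose. Among all features 9.15% were called lower and 7.63% higher, so these few calls are not a result about the list.

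Of 12 listed histone genes 6 fell and 2 rose. H1-5 had 7.88 and 7.72 on the WM983B arrays labelled shp300, against 10.00 and 10.01, and 2.09 and 2.30 in SK-Mel5 with shp300, against 4.11 and 4.14, which was a fall of 2.07. H1-4 fell by 1.26, H1-2 by 1.23 and H2AZ1 by 1.11. H2BC5 (1.77) and H2BC12 (0.75) were higher. Histone genes of one type are near-identical, so that a single member's value is uncertain.

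Among p53 targets rises were more frequent than falls. Of 18 measured 9 rose and 1 fell, against 7.63% and 9.15% of all features. The same numbers were shared, and the median was 0.50. TNFRSF10B, a death receptor, had 8.30 and 8.32 on the WM983B arrays labelled shp300, against 7.33 and 7.34, and 7.66 and 7.64 in SK-Mel5 with shp300, against 6.53 and 6.57. It rose by 1.04 (SE 0.08, adjusted p = 8.98e-05), with very little spread. TP53I3 rose by 1.10, the cyclin-dependent kinase inhibitor CDKN1A by 0.86, the death receptor FAS by 0.84 and the stress sensor GADD45A by 0.79. RRM2B, a ribonucleotide reductase subunit, fell by 1.06. MDM2 (-0.27 in WM983B and 0.68 in SK-Mel5) and BAX (-0.54 and 0.63) went apart and were not called.

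Immediate early genes, the first to respond to growth signals, rose in part. Of 17 measured 9 rose and 1 fell, with a median of 0.67. EGR1 had 9.31 and 9.59 on the WM983B arrays labelled shp300, against 7.92 and 7.81, and 7.10 and 6.71 in SK-Mel5 with shp300, against 4.55 and 4.43. EGR1 rose 4.0-fold (2.00, SE 0.18, adjusted p = 0.000178). JUN, a subunit of AP-1, rose by 1.96 and by 1.34, IER2 by 1.34 and by 1.41, and the AP-1 subunit FOSL1 by 1.18 and by 0.78. The member that fell was MYC (-0.40), while EGR3 (2.48 and -0.17) and FOSB (2.02 and 0.11) were not called. Of 13 ERK feedback genes 6 rose and 2 fell, against 7.63% and 9.15% of all features. By the rule 4 were shared and higher and 3 shared and lower. The list median was 0.76 in WM983B and 0.16 in SK-Mel5. The change differed between lines for 8 of the 13, against 9.46% of all features. Over all features, the number of such differences depended on single arrays, as described below. The feedback inhibitors SPRED1 and SPRY2 rose by 1.08 and 1.16, the phosphatase DUSP5 by 1.36, and the ETS factor ETV5 fell by 0.51. DUSP5 was lost without any 1 of the 4 WM983B arrays (adjusted p 0.0746 to 0.0797). DUSP6 (0.65 and -0.78) and CCND1 (1.50 and -0.16) were not called.

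Inflammatory genes under NF-kB rose without a fall among them. Of 19 measured 10 rose, 11 were shared and higher, and the median was 0.77. CXCL8, the neutrophil chemokine interleukin-8, had 9.56 and 9.85 on the WM983B arrays labelled shp300, against 6.18 and 5.87, and 5.45 and 5.28 in SK-Mel5 with shp300, against 3.55 and 4.05. LIF, a cytokine of the interleukin-6 family, had 9.84 and 10.01, against 6.47 and 6.43, in WM983B and 5.95 and 5.41 with shp300, against 4.14 and 4.32, in SK-Mel5. Both were higher in each line and by more in WM983B (differences of 2.12 and 2.02, adjusted p = 0.00452 and 0.00392). IL1B, which encodes interleukin-1 beta, rose by 4.31 and by 1.17, with WM983B arrays labelled shp300 at 6.11 and 7.36. NFKB1, a subunit of NF-kB, rose by 0.79, NFKB2 by 0.73 and the inhibitor NFKBIA by 0.73. TNFAIP3 (-0.43 and 0.44) and CCL2 (2.68 and -0.09) were not called.

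Of 19 genes of TGF-beta, YAP and matrix 7 rose and 0 fell, and their median was 0.69, 1.24 in WM983B and 0.11 in SK-Mel5. SKIL, a repressor induced by TGF-beta, had 7.55 and 7.76 on the WM983B arrays labelled shp300, against 6.07 and 5.81, and 4.51 and 4.63 in SK-Mel5 with shp300, against 3.24 and 3.18. SKIL rose by 1.54 (SE 0.12), the ligand TGFB1 by 1.23, fibronectin (FN1) by 0.84 and the fibronectin receptor subunit ITGA5 by 1.68. INHBA, the largest change of the list, is described below. The YAP targets CCN1 (2.56 and -0.09) and CCN2 (2.70 and -0.07) were not called. TGFB2 read -0.05 and -2.05 and was not called either.

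Pigment genes fell in both lines for 9 of 19 measured members, with 1 rise and a median of -0.64, -0.78 in WM983B and -0.02 in SK-Mel5. TRPM1, a melanocytic cation channel, had 4.54 and 4.08 on the WM983B arrays labelled shp300, against 8.19 and 8.12, and 4.98 and 4.83 in SK-Mel5 with shp300, against 6.93 and 6.77. MLANA, the antigen Melan-A, had 8.46 and 8.01, against 11.61 and 11.68, in WM983B and 9.97 and 10.30 with shp300, against 11.66 and 11.55, in SK-Mel5. The 2 genes were the shared pigment genes that passed 2-fold in each line, with falls of 2.90 and 2.44 over both. SLC45A2 and GPR143, membrane proteins of melanosomes, fell by 1.27 and 1.06, while tyrosinase (TYR) rose by 0.43, a call lost without any array but WM983B scrambled replicate 1 and WM983B shp300 replicate 2 (adjusted p up to 0.0804). SOX10 (-0.03), PAX3 (-0.02) and PMEL (-0.19) were not called. MITF had 7.37 and 6.98 on the WM983B arrays labelled shp300, against 8.92 and 8.85, and 7.14 and 7.12 in SK-Mel5 with shp300, against 7.33 and 7.43. It met the shared rule and was called (-0.98, SE 0.27, adjusted p = 0.0342), with -1.71 in WM983B and -0.25 in SK-Mel5, which differed (adjusted p = 0.0057). The MITF call was lost without any 1 of the 4 WM983B arrays, with changes of -0.76 to -0.92 and adjusted p from 0.0834 to 0.104.

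Of 19 other MITF targets 10 fell and 1 rose, 12 were shared and lower, and the median was -0.74. PPARGC1A, the co-activator of mitochondrial biogenesis PGC-1 alpha, had 7.93 and 7.64 on the WM983B arrays labelled shp300, against 9.58 and 9.68, and 8.36 and 8.40 in SK-Mel5 with shp300, against 10.25 and 10.19. It fell by 1.85 in WM983B and by 1.84 in SK-Mel5. The part of MITF in the changes of these genes was not tested. The chloride channel BEST1 fell by 1.70 and by 1.82, GMPR, an enzyme of purine salvage, by 1.38 and by 1.66, and the survival gene BCL2 by 1.87 and by 1.08. MET (-0.04), CEACAM1 (-0.01) and ATP6V1H (-0.09) were not called.

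Genes of the dedifferentiated melanoma state rose for 5 of 18 members and fell for 1, against 7.63% and 9.15% of all features. The list median was 0.51, 0.78 in WM983B and 0.13 in SK-Mel5. The mesenchymal factor ZEB1 rose by 0.69, TWIST1 by 0.44 and tenascin C (TNC) by 0.91, and SNAI2, a factor of the neural crest, fell by 1.05. The change of TNC was 1.44 in WM983B and 0.38 in SK-Mel5. Its SK-Mel5 values were dim, 1.84 and 1.89 with shp300 against 1.44 and 1.52. The calls of ZEB1, TWIST1 and TNC were lost without single arrays, TNC without WM983B scrambled replicate 2 (adjusted p = 0.0536) or WM983B shp300 replicate 1 (adjusted p = 0.0512). That of TWIST1 was lost without any of the 4 WM983B arrays, SK-Mel5 scrambled replicate 2 or SK-Mel5 shp300 replicate 2 (adjusted p up to 0.0796). That of ZEB1 was lost without any array but WM983B scrambled replicate 2 and SK-Mel5 shp300 replicate 2 (adjusted p up to 0.129). AXL (1.58 and 0.06), NGFR (2.19 and -0.30) and EGFR (0.06 and 0.21) were not called.

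Energy and lipid metabolism showed smaller shared falls. Of 20 glycolysis and hypoxia genes 11 fell and 0 rose, with a median of -0.46. BNIP3, a mitophagy receptor, fell by 1.55 in WM983B and by 1.44 in SK-Mel5, the glycolytic enzymes ALDOC and PFKP by 1.24 and 1.01 over both lines, lactate dehydrogenase LDHA by 0.85 and the kinase PDK1 by 1.01. Of 14 respiratory chain genes 7 fell and 0 rose, and 10 were shared and lower (median -0.32). NDUFA9 of complex I fell by 1.09, and UQCRC2 and UQCRC1 of complex III by 0.73 and 0.61. Of 22 genes of cholesterol and fatty acid synthesis 5 fell, among them FDPS (-1.0) and LSS (-0.95), enzymes of the mevalonate and sterol branches. The median of that list was -0.01 in WM983B and -0.69 in SK-Mel5, and HMGCS1 read 1.08 and -1.13.

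Of 21 interferon response genes 3 rose and 2 fell, and of 17 lysosome and autophagy genes 2 rose and 2 fell, against 7.63% called higher and 9.15% called lower among all features. Counts this small are near that background and are not a result about these lists. The RNA sensor IFIH1 rose by 0.75 and the factor IRF7 by 0.54. The other calls, RIGI (0.63), OAS3 (-0.47) and MX1 (-0.41), were each lost without any of several arrays (adjusted p up to 0.0834 for RIGI, 0.0565 for OAS3 and 0.114 for MX1, in each case among them WM983B scrambled replicate 1 and both WM983B arrays labelled shp300). Of 13 HLA class I genes 5 rose, among them the loading chaperone TAPBP (0.93), the trimming enzyme ERAP1 (0.82) and HLA-B (0.58), while the immunoproteasome subunits PSMB9 (-0.89) and PSMB8 (-0.81) fell. HLA genes have many alleles and near-identical copies, which makes their single values uncertain. Of 20 unfolded protein and stress genes 3 rose and 2 fell, counts that are also near the background and not a result about the list. PPP1R15A, a phosphatase subunit of the stress response, rose by 0.97, while the asparagine synthetase ASNS fell by 1.15 and the quinone reductase NQO1 by 0.87. Among the lysosome and autophagy genes the factor TFE3 rose by 0.55, and WIPI1 and ATP6V1C1 fell by 0.79 and 0.53. Of 19 MYC targets 4 fell and 1 rose, with a median of -0.29, and these few calls are not a result about the list either. CDC25A, a phosphatase that activates cyclin-dependent kinases, fell by 1.10.

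The list of granins and synaptic vesicle genes had the highest median of the change over both lines (0.84), but not of the change in either line. Its medians were 0.52 in WM983B and 0.36 in SK-Mel5, below those of the NF-kB and inflammatory list (0.71 and 0.61), among others. Of its 18 measured members 8 rose and 2 fell, and 9 were shared and higher, 5 of them by at least 2-fold in each line. Besides SCG3 and SCG2 these were UNC13A, which primes synaptic vesicles, the membrane fusion protein STX1A and the stathmin relative STMN3. UNC13A had 5.05 and 5.37 on the WM983B arrays labelled shp300, against 3.87 and 3.65, and 5.24 and 5.28 in SK-Mel5 with shp300, against 2.76 and 2.42. STX1A had 6.25 and 6.67, against 4.52 and 4.01, in WM983B and 4.83 and 5.28 with shp300, against 3.71 and 4.21, in SK-Mel5. Both rose, UNC13A by 2.06 with the larger change in SK-Mel5 (adjusted p of the difference 0.0173), and STX1A by 1.64. Chromogranin B (CHGB) rose by 0.74 and by 3.0, and synaptophysin (SYP) by 2.50 and by 0.87. Chromogranin A (CHGA, -0.49 and 1.50) and SNAP25 (0.30 and -0.09) were not called, nor was REST (0.00 and -0.67), the repressor of neuronal genes. RAB3A and SYT11 fell by 1.06 and 0.75. Of 8 marker genes of HEK293T, the line in which lentivirus is commonly packaged, EYA1 was called (1.05), a call lost without any 1 of the 4 SK-Mel5 arrays (adjusted p 0.0502 to 0.058). CDH2 was at 0.61 without being called, and 3 of the 8 lay above the median feature in WM983B and 4 in SK-Mel5. The mean level of these markers was 4.97 to 5.06 in WM983B labelled shp300, against 4.81 to 4.82, and 3.93 to 4.04 in SK-Mel5 with shp300, against 3.77, and their part in the rises was not tested.

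**Figure D5:**
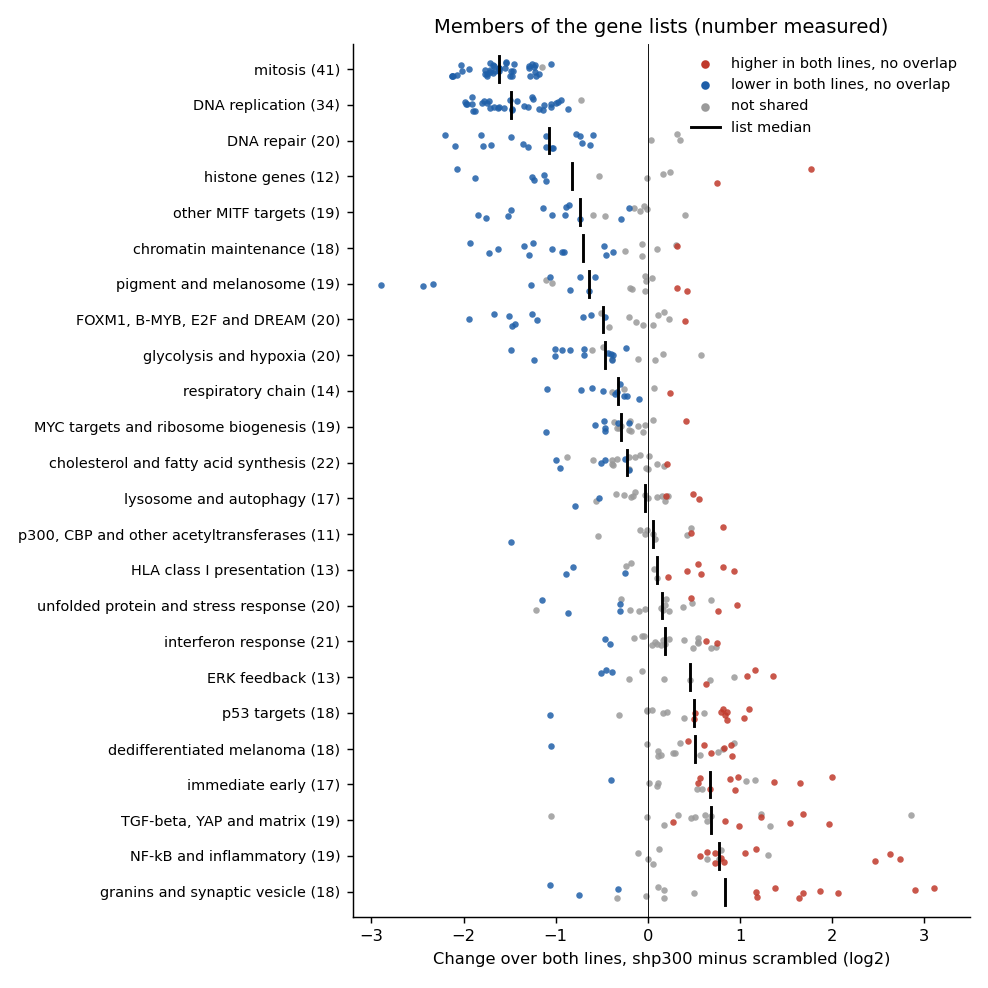
Change over both lines (log2, shp300 minus scrambled) of each measured member of the 24 gene lists, with the number measured in brackets. Red and blue points are shared rises and falls, grey points are not shared, and black bars are list medians. Mitosis (median -1.61) and DNA replication (-1.49) stand lowest, and granins and synaptic vesicle genes (0.84) highest by this median, though not in either line alone.

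Shared direction did not mean equal size. The change differed between lines for 2250 of all features (9.46%) and for 618 of the shared ones, 399 with the larger change in WM983B and 219 with the larger change in SK-Mel5. These counts depended on single arrays: without WM983B scrambled replicate 2 they were 885 and 248, and without any other array but SK-Mel5 shp300 replicate 1 the first of them also fell by over 1.5 times. Among falls of at least 2-fold in each line 191 were larger in SK-Mel5 and 140 in WM983B, and among such rises 32 and 45. TYRP1, a melanosomal enzyme, was an extreme case of a shared fall. It had 6.25 and 6.04 on the WM983B arrays labelled shp300, against 10.26 and 10.14, and 10.64 and 10.67 in SK-Mel5 with shp300, against 11.25 and 11.27, and its call over both lines was lost without any 1 of the 4 WM983B arrays (adjusted p 0.0742 to 0.0794). TFPI2, a protease inhibitor, and KCNN4, a potassium channel, met the rule with changes of 3.52 and 3.02 in WM983B and of 0.10 and 0.07 in SK-Mel5, and were not called. ATP1B1, a subunit of the sodium pump, read -0.16 and -3.16 and was not called over both lines.

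Of the 11 features with 2-fold changes in opposite directions, 10 were higher in WM983B and lower in SK-Mel5. Named after their values were seen, they include A2M, FGFR1, NT5E, HMGCS1 and PMAIP1, and the other one was CLDN1. At the edge of the rule, PRIMPOL, DCBLD1 and GPRIN3 were shared with gaps between groups of 0.00014, 0.000256 and 0.000892 in 1 line, and CISH, PPP1R1C and CCDC171 were left out with a gap of 0. Of the called features 92 were not shared, and 0 of them changed sign between lines. The largest such rises were INHBA (5.27 and 0.45), MT1E, RDH5, HBEGF and LINC00702, and the largest such falls LINC00589 (-3.65 and -0.29), TPPP3, LINC01013, ASRGL1 and H2BC6. Each of these 10 calls rested on few arrays. Without any 1 of the 4 WM983B arrays 9 of them were lost, with adjusted p from 0.0822 to 0.139, and TPPP3 was lost without WM983B shp300 replicate 2 or any SK-Mel5 array (adjusted p 0.0707 to 0.0981).

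Shared features were mostly protein-coding and bright. Protein-coding genes made up 97.9% of the named falls of at least 2-fold in each line and 90.8% of such rises, against 78.6% of all named features. In 4 equal classes of features, ordered by level, 5.38%, 10.8%, 34.7% and 49.2% were shared, dimmest first. The dimmest class held 0 changes of at least 2-fold in each line.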

How the data were processed

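RNA of 8 samples was hybridised to Affymetrix Human Gene 2.0 ST arrays. The deposited values are log2 expression per gene feature, made by the authors with RMA (affy 1.36.1, R 2.15.1), per the submitters' processing notes. The values of each line follow one distribution of their own, so the lines were apparently normalized separately. How probes were mapped to genes is not given in these sources. Of 23786 features 22458 carried 1 symbol and 1328 none. Arrays were grouped by their titles, and their number limits the precision. limma 3.58.1 (R 4.3.3, lmFit and eBayes) was fitted to all features with line and shRNA as terms, and a fit of the 4 groups gave the changes per line and their difference. An adjusted p under 0.05 (Benjamini-Hochberg, all features together) was called. The fits were tested on simulated data. No filter was applied. The alternatives tried were a replicate block, scalings, dim features left out, variance models, thresholds and each array left out. The genes named are EP300, CREBBP, MITF and FOXM1, the 15 highest ranked rises and 15 falls, up to 4 shared members per list, the 5 largest rises and 5 falls called but not shared, and the 5 shared genes that differed most between lines. Further list members, and the gene families of the closing section, were picked after their values were seen. The members and lists were chosen with earlier results of these data known, so no list count is independent evidence.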

Additional observations from a re-analysis of the deposited data

Results flagged for a closer look

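Of the 143 genes named by the rules above, the change differed between WM983B (arrays labelled shp300) and SK-Mel5 for 36. The test was that of the difference itself (limma, 4-group fit), at an adjusted p under 0.05. Further genes named after their values were seen were not part of this count, so their absence here does not mean equal changes. Values are log2 differences, WM983B minus SK-Mel5, and 9.46% of all features differed in this way. EP300 itself is among them (0.95). They were named one by one, and no group of genes was tested for such a difference.

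The change was higher in WM983B, with a larger rise there, for INHBA (4.83), IL1B (3.13), CXCL8 (2.12), LIF (2.02), DUSP5 (1.93), HBEGF (1.68), ITGA5 (1.28), TNC (1.06) and SPRY2 (0.80). So did TFPI2 (3.42), KCNN4 (2.95), RDH5 (2.24), CDH2 (1.03), MXD1 (0.91) and CEMIP2 (0.75). The fall was larger in SK-Mel5 for ATP1B1 (2.99), TPPP3 (2.19), SLC19A2 (1.27), PRKCH (1.23) and FDPS (0.73). The fall was larger in WM983B for TYRP1 (-3.45), MLANA (-1.94), TRPM1 (-1.90), MITF (-1.46), SNAI2 (-1.25) and SLC45A2 (-1.06). The same held for LINC00589 (-3.36), ASRGL1 (-1.75), CHAF1B (-0.99), E2F1 (-0.94), SPC25 (-0.85) and BRCA1 (-0.61). EYA1 (-1.38), UNC13A (-1.22) and TP53I3 (-0.82) had the larger rise in SK-Mel5.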

How the results depend on the processing

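Among the 143 genes named by rule, no change reversed its sign under the alternatives run. The alternatives were not followed for the further genes named after their values were seen. The replicate numbers do not pair the samples (correlation of deviations between -0.0291 and 0.0277), and with the replicate block 3349 features were called, 1477 higher and 1872 lower. Of 143 named genes 130 kept their side of the threshold with the block and 13 did not reach it, and 119 to 135 kept it when 1 array was left out. The mean of both lines from the 4-group fit called 6143 features, 3026 higher. Asking for 1.5-fold left 2291 called, 874 higher and 1417 lower. Shared features numbered 1306 (426 higher, 880 lower) with 1.5-fold and 408 (77 and 331) with 2-fold in each line. Also called were 3899 (1766 higher), and 1890 (721 and 1169) passed an adjusted p under 0.05 in each line. These thresholds were chosen after seeing the data. Without 1 array, 2845 to 3694 features were called (1212 to 1729 higher, 1633 to 1974 lower), and 6896 to 7527 were shared (3485 to 3908 higher, 3395 to 3658 lower), a looser rule where a group keeps 1 array, whose spread is assumed to be that of the others. The difference between lines was called for 885 to 1784 features and for 248 to 513 of the shared ones. Among shared features this count was 1003 with dim features left out and 1006 with trend and robust variances; the cause was not tested. Dim values and 2 arrays a group limit what could be seen.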

Other observations

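Gene families beyond the lists, chosen after their values were seen, give a description without a test of the family. Of 19 CENP genes of the centromere 16 were shared and lower and 17 fell, with a median of -1.27, and of 8 condensin genes 7 were shared and lower (median -1.52). The background shares are 12.6% for shared falls and 12.4% for shared rises, and 9.15% and 7.63% for called falls and rises. Of 12 genes of serine and one-carbon metabolism 8 were shared and lower, and 7 to 8 were called under the scalings tried. The mitochondrial folate carrier SLC25A32 fell by 1.78 in WM983B (arrays labelled shp300) and by 1.71 in SK-Mel5. The serine synthesis enzymes PSAT1 and PHGDH fell by 1.54 and 1.39 over both lines. Of 17 circadian clock genes 4 fell, PER3 by 1.69, DBP by 1.50, CLOCK by 0.99 and BHLHE41 by 0.96, and 0 rose. The median of this family was only -0.03, and 1 member, NPAS2, was shared and higher without being called. BMAL1 (0.03 over both lines), PER1 (0.78 and -0.35) and NR1D1 (0.71 and -0.39) were neither shared nor called.

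Of 26 integrin genes 10 were shared and higher and 0 were shared and lower, with 8 to 10 called under the scalings tried. ITGB1, the most widely used beta subunit, rose by 1.26 in WM983B and by 1.22 in SK-Mel5 (limma adjusted p = 6.95e-05). ITGA3 rose by 2.22 and by 1.16, and ITGA1 by 1.48 and by 1.09. Of 14 genes of chondroitin synthesis 7 were shared and higher, of which 4 were called, and the family median was only 0.22. Among those called were the polymerising factors CHPF2 (1.49) and CHPF (1.15). Of 315 small nucleolar RNAs 41 were shared and higher, close to the background share, and 5 were shared and lower, below it. SNORD14E (0.99) and SNORD71 (0.94) rose, and SNORD1B (-1.09) fell. Many of these RNAs have near-identical copies or lie in introns of other genes, so single values are uncertain.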
